A study of Mus musculus with 38 samples.

Results

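The ligands of the tumour necrosis factor (TNF) superfamily were followed across 14 RNA-seq libraries of mouse CD4 T helper cells. The 9 genes were chosen by name, as the ligands that activated helper cells are known to use: Tnf, Lta, Ltb, Fasl, Cd40lg, Tnfsf8, Tnfsf10, Tnfsf11 and Tnfsf14. Earlier results of these data were known when they were chosen, so the choice was not independent of the data. All 9 were found among the 23700 entries of each gene table, and all 9 passed the expression filter that left 11121 genes for testing. Every library came from naive CD4 cells of C57BL/6J mice, sorted from spleen and lymph nodes and polarised in culture, and no source used here gives the age of the mice. Cultures with no retrovirus were taken at day 7, after 2 h of restimulation through CD3 and CD28. They were STAT6 KO Th2 (allele Stat6<tm1>) and WT Th2, restimulated with IL-4, and STAT4 KO Th1 (STAT4<tm1>), T-bet KO Th1 (Tbet<tm1>) and WT Th1, restimulated with IL-12. The retroviral libraries, labelled day 5, were STAT6 KO and WT Th2 cells with a GATA3 vector or a control vector, and STAT4 KO and WT Th1 cells with a T-bet vector or a control vector. WT Th1 without a vector held 2 libraries and each of the other 12 groups held 1. Another label gives 7 days and the 2 h restimulation for the Th1 vector cultures, while no source used here says whether the Th2 vector cultures were restimulated. Which part of Stat4, Stat6 or Tbx21 the tm1 alleles lack is not stated, and the vectors are named pMY-IRES-hNGFR. No label ties a library to an animal or culture of its own. The p-values below therefore cover the spread between these samples only, and that spread may be technical.

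TNF superfamily ligands are trimeric proteins, mostly held in the plasma membrane and sometimes shed from it, that bind receptors of the TNF receptor superfamily on neighbouring cells. Receptors with a death domain, such as Fas, can start apoptosis, and those without, such as CD40, recruit TRAF adaptors and activate NF-kB. In helper T cells many of these ligands are induced within hours of T cell receptor stimulation, and they carry the contact-dependent signals by which T cells license B cells, dendritic cells and macrophages.

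The genes Ltb, Tnf and Lta lie side by side on mouse chromosome 17 (build mm9): Ltb at 35331452 to 35333250, Tnf at 35336336 to 35338941 and Lta at 35340110 to 35342296. Tnf encodes the inflammatory cytokine TNF, Lta the secreted lymphotoxin alpha, and Ltb the membrane protein that anchors lymphotoxin alpha in the lymphotoxin heterotrimer. The gap between Tnf and Lta is 1168 bp and that between Tnf and Ltb 3085 bp. The others lie apart: Fasl on chromosome 1 (163710823 to 163718626), Tnfsf10 on 3 (27215999 to 27238587), Tnfsf8 on 4 (63493858 to 63522318), Tnfsf11 on 14 (78677253 to 78707850), Tnfsf14 elsewhere on 17 (57328915 to 57333609) and Cd40lg on X (54465320 to 54477219). The promoters of Tnf, Lta and Ltb are shown because these genes recur in the results below. They carry different numbers of matches to the motifs of the STAT proteins, and the bearing of these matches on RNA levels was not tested. Each line gives the 250 bases before the RefSeq start site (RefSeq table of build GRCm38.p6, found once by exact match on that strand of its chromosome in mm9), 5′ to 3′ on the gene's own strand. Capitals mark matches to TTCNNNGAA or TTCNNNNGAA, both of which read the same on either strand. The windows are chr17:35338953-35339202 (minus strand) for Tnf, chr17:35342297-35342546 (minus strand) for Lta and chr17:35331202-35331451 (plus strand) for Ltb.
Tnf: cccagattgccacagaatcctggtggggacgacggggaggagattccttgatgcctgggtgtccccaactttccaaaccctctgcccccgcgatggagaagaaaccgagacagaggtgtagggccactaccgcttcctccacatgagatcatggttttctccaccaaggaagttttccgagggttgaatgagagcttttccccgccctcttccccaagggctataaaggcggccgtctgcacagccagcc
Lta: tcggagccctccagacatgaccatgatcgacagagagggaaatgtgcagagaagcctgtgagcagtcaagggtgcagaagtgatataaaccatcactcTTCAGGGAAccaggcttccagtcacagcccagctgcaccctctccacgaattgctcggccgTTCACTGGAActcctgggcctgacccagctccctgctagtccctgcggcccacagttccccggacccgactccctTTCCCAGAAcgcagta
Ltb: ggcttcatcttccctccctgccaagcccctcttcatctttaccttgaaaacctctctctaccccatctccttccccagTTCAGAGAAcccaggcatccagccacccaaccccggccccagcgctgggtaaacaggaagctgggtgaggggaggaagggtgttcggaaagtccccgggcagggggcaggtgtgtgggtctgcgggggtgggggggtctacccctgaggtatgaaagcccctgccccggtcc
The Lta window held 2 matches with the 3-base spacer and 1 with the 4-base spacer that STAT6 is known to prefer, TTCACTGGAA, which lay 91 to 82 bases before the start. The Ltb window held 1 match with the 3-base spacer, and these letters were not in the Tnf window. Of 32851 mouse promoter windows of the same length, 7.02% held the 3-base form and 5.85% the 4-base form. The GATA letters AGATAA, on either strand, were in none of the 8 ligand windows in the table (Cd40lg is not in it), against 9.99% of all windows. The NFAT core GGAAA was in all 8 on 1 strand or the other, with 3 copies in Tnf, but 55.6% of all windows held it too, and the NF-kB consensus was in Ltb alone among the ligands, against 7.25% of all windows. A match is a description of the letters and not a binding site.

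FPKM, the fragments of a gene scaled to transcript length and library size, is used throughout and allows levels of different genes to be compared. Cd40lg, which encodes the CD40 ligand through which helper cells activate B cells, ranked 10 of the 11121 tested genes in WT Th1 replicate 1, and Tnf ranked 17. In WT Th1 replicate 2 Cd40lg ranked 138, and the lowest ranks of Cd40lg and Tnf in any library were 296 and 365. Summed over the 9 genes, the level went from 1034 FPKM in WT Th2 cells with the GATA3 vector to 5239 FPKM in WT Th1 replicate 1. Tnfsf10, which encodes the apoptosis-inducing ligand TRAIL, was the lowest at 0.513 to 12.1 FPKM, and the other 8 genes were at 40.1 FPKM or more in every library. Precision of counting was high: the interval that Cufflinks lists around a value reached at most 5.68% of the value on either side for the other 8 genes and 4.32% to 19.2% for Tnfsf10. These intervals cover counting error only, and the number of reads behind each library is not in the tables.

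The level of each gene was then ordered over the 14 libraries. For Ltb, Fasl, Cd40lg, Tnfsf8, Tnfsf10 and Tnfsf11, all 13 steps between neighbouring libraries were no larger than the gap between the 2 WT Th1 replicates. Both replicates are themselves in the order, so a step that lies between them cannot exceed the gap, by construction. Replicate 2 also belongs to the pair of libraries, described below, that differed from the rest. The counts of steps therefore describe the order and test nothing. That gap was 1.14 to 1.84 on the log2 scale for these genes. It was smaller for Lta (0.19), Tnfsf14 (0.24) and Tnf (0.62), where 9, 10 and 11 of the 13 steps lay within it. Tnfsf8 encodes CD30 ligand, Tnfsf11 the osteoclast-activating ligand RANKL, Tnfsf14 the lymphotoxin-like ligand LIGHT and Fasl the death ligand of Fas. A day 7 library without a vector held the top of the order for every gene but Tnfsf10, and WT Th2 cells with the GATA3 vector held the lowest level of Tnf, Lta, Ltb and Tnfsf11.

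**Figure D1:**
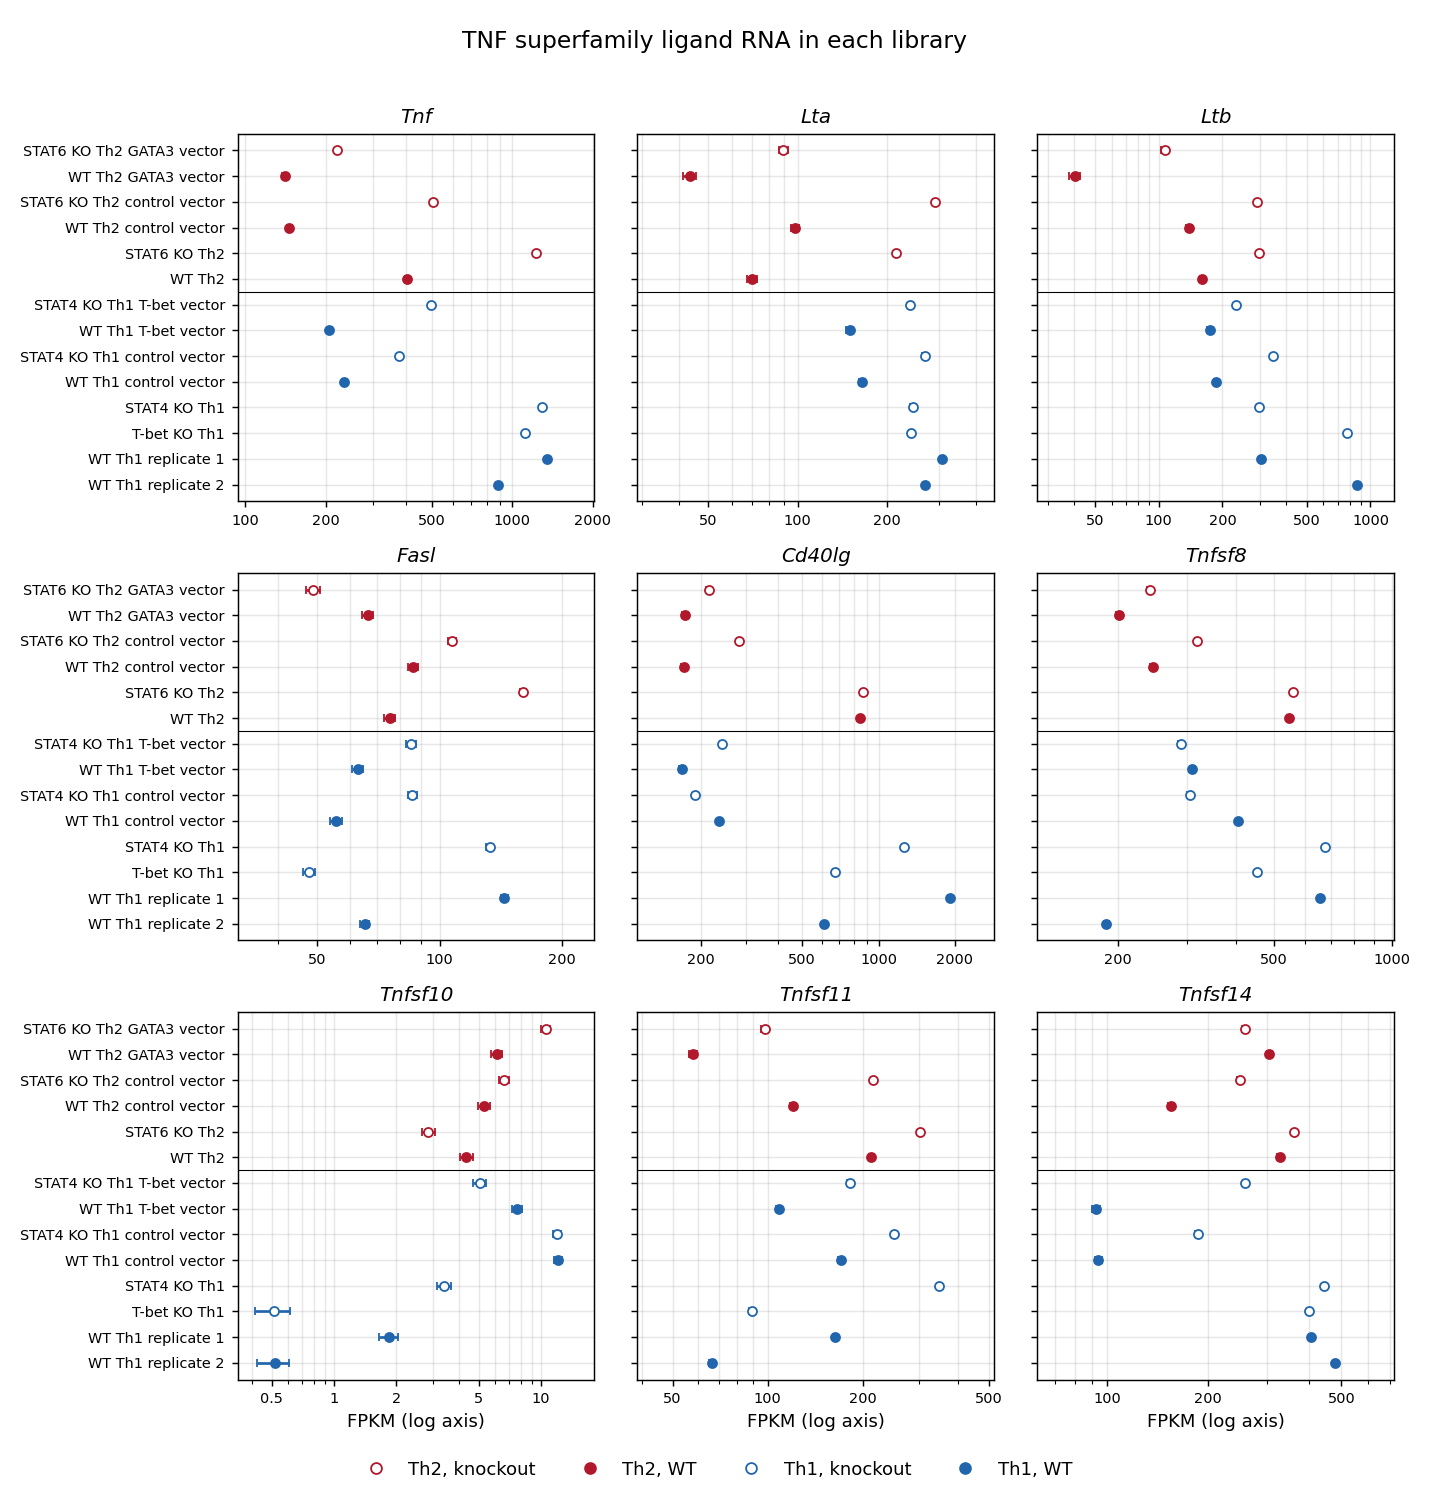
FPKM of each ligand gene (log axis, a panel for each gene) in the 14 libraries, with Th2 libraries in red above the line and Th1 libraries in blue below it; open points are knockouts and bars are the intervals Cufflinks lists, which cover counting error only. Tnf and Cd40lg reached 1351 and 1907 FPKM in WT Th1 replicate 1, while Tnfsf10 stayed between 0.513 and 12.1 FPKM.

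Some properties of the whole series bear on these values. A pair of libraries, WT Th1 replicate 2 and T-bet KO, differed from the rest: across tested genes they correlated at 0.976 with each other and at 0.676 to 0.801 with the rest, against 0.856 to 0.99 among the other 12 (Pearson r across genes, which are not independent replicates). Results are therefore given from the additive limma fit of all 14 libraries and from the same fit with a batch term for this pair of libraries. With the batch term the spread comes from departures from additivity, and without it also from the gap between the WT Th1 replicates. Vector labels matched the RNA, with Gata3 at 377 and 589 FPKM in the GATA3 vector libraries (STAT6 KO and WT) against 29.7 and 95.7 with the control vector. Tbx21, the T-bet gene, had a level of 4.18 FPKM in T-bet KO cells, against 88.4 and 153 FPKM in both WT Th1 replicates. Without a vector, Stat4 RNA stood at 17.5 FPKM in STAT4 KO cells, between the WT Th1 replicates (60.8 and 15.1), and Stat6 RNA at 34.6 FPKM in STAT6 KO cells against 35.6 in WT Th2. In the vector pairs Stat6 stood at 36.1 (control) and 23.3 (GATA3) FPKM in STAT6 KO cells, against 65.9 and 48.0 FPKM in WT Th2 cells. Stat4 stood at 7.57 (control) and 6.71 (T-bet) FPKM in the STAT4 KO vector libraries, against 41.0 and 37.1 FPKM in WT Th1 cells. The Stat6 level thus does not check the STAT6 KO label of the pair without a vector. The Stat4 level checks the STAT4 KO label without a vector only against WT Th1 replicate 1, not against replicate 2. CD4 T cell markers summed to 702 to 1548 FPKM, and summed markers of B cells, NK cells, dendritic cells, CD8 cells and macrophages stayed at or below 1.46, 4.68, 5.20, 5.65 and 10.9 FPKM.

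The STAT6 KO comparison asks which ligands differ in Th2 cells that cannot transmit the IL-4 signal through STAT6. Lymphotoxins and Tnf stood higher in the STAT6 KO library of each matched pair, and Ltb passed the test once the batch term was in the fit. Lta was 216, 290.2 and 89.6 FPKM in STAT6 KO Th2 cells without a vector, with the control vector and with the GATA3 vector, against 70.3, 98.0 and 43.3 FPKM in the matched WT Th2 cells. The groups overlapped only through the KO library with the GATA3 vector, which lay below the WT library with the control vector. Ltb was 298, 291 and 107 FPKM in the same STAT6 KO libraries, against 161, 139 and 40.1 FPKM in WT. Tnf was 1228, 507 and 221 FPKM in STAT6 KO, against 402, 147 and 141 FPKM in WT. The KO library with the GATA3 vector again lay within the WT range for both genes. In each of these genes the KO library was above its own WT partner 3 of 3 times, and for Tnf the ratio was smallest with the GATA3 vector (1.56-fold, against 3.05-fold without a vector and 3.44-fold with the control vector).

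Tested across all genes with limma (Benjamini-Hochberg adjusted p under 0.05), none of the 9 ligands was called in STAT6 KO in the additive fit. There 0.432% of all tested genes were called higher and 0.531% lower. In this fit 3 ligands had an unadjusted p under 0.05, as had 1223 of 11121 genes. With the batch term 1 ligand was called higher, against 1.66% of all genes, and none lower, against 1.04%. That ligand was Ltb, with a log2 change of 1.11 ± 0.18 (SE; adjusted p = 0.0366, limma), against 1.11 ± 0.44 and adjusted p = 0.387 without the term. The fitted difference was 1.40 ± 0.29 for Lta (adjusted p = 0.0693, and 0.0621 with the term, limma) and 1.35 ± 0.33 for Tnf (adjusted p = 0.113 and 0.0976, limma), so neither passed. Lta alone was at least 2-fold higher in all 3 matched pairs, as were 0.944% of all genes, and no ligand was 2-fold lower in all, as were 0.629%. For no ligand did the 3 KO and 3 WT libraries lie apart, against 8.41% of all genes with every KO library higher and 3.7% with every KO library lower. Leaving out WT Th1 replicate 2 gives the same estimate by construction and is no separate support. The fitted change was positive for all 9 ligands in the additive fit, with a median of 0.35 against 0.04 over all genes, and under both other scalings. The batch term leaves these estimates unchanged by construction. It was positive for 8 of 9 when WT Th2, or any single Th2 library with the control or GATA3 vector, was left out. The 6 ligands Tnf, Lta, Ltb, Cd40lg, Tnfsf8 and Tnfsf11 were higher in every pair, as were 28.8% of all genes. Of these, Tnfsf11 was 304, 215 and 97.6 FPKM in STAT6 KO libraries without a vector, with the control vector and with the GATA3 vector, against 213, 120.5 and 58.1 FPKM in WT. Its KO library was the higher of each pair (log2 0.69 ± 0.16, adjusted p = 0.0715 with the batch term, limma). Fasl, Tnfsf10 and Tnfsf14 went both ways: Fasl was 160.2 FPKM in STAT6 KO against 75.3 in WT without a vector, but 48.9 against 66.5 with the GATA3 vector.

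Among the genes fixed as regulators of the ligands, Tbx21 and Irf1 were called higher in STAT6 KO and none of the 15 lower. Tbx21 stood at 43.7, 40.4 and 24.7 FPKM in the STAT6 KO Th2 libraries against 3.61, 2.43 and 2.08 in WT (log2 3.31 ± 0.24, adjusted p = 0.000868, limma). Irf1, an interferon-induced transcription factor, stood at 557, 268 and 236 FPKM in STAT6 KO against 62.5, 60.9 and 42.1 in WT (log2 2.57 ± 0.42, adjusted p = 0.0297, limma). The 16 immediate early genes of T cell receptor stimulation, which mark how strongly cells were restimulated, summed to 3267, 3440.1 and 2878 FPKM in STAT6 KO against 2533, 2903 and 2693 in WT. These sums, here and below, include Myc, which was not tested because its estimate failed in some library. A single gene can weigh heavily in them: without a vector Cd69 was 492 FPKM in STAT6 KO against 84.8 in WT. None of the 15 tested was called in this comparison, and their median change was 0.11; the part of stimulation strength in the ligand values was not tested.

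Ectopic GATA3 in Th2 cells was set against the control vector in both genotypes. Lta, Ltb and Tnfsf11 were lower with GATA3 in both pairs by more than 2-fold. Ltb was 107 FPKM in STAT6 KO and 40.1 FPKM in WT cells with the GATA3 vector, against 291 and 139 FPKM with the control vector. Lta was 89.6 and 43.3 FPKM with GATA3, against 290.2 and 98.0 FPKM with the control vector. Tnfsf11 was 97.6 and 58.1 FPKM with GATA3, against 215 and 120.5 FPKM with the control vector. For all 3 genes the library with GATA3 was the lower of its pair in KO and in WT cells. The 2 vector groups did not overlap for these 3 genes, Fasl and Tnfsf8, lower with GATA3, and Tnfsf14, higher, so 5 of 9 ligands lay apart on the lower side and 1 on the higher, against 18.8% and 25.7% of all genes. Such 2-fold lower levels in both pairs were seen in 0.252% of all genes and in 3 of the 9 ligands; 2.04% of all genes and no ligand were 2-fold higher in both.

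In the additive fit no ligand was called for the GATA3 vector, with 0.018% of all genes called lower and 1.03% higher. Of the ligands 3 had an unadjusted p under 0.05, as had 953 of 11121 genes. With the batch term Ltb and Tnfsf11 were called lower, against 0.243% of all genes lower and 2.65% higher. Ltb fell by 1.58 ± 0.21 on the log2 scale (adjusted p = 0.016, limma) and Tnfsf11 fell by 1.20 ± 0.18 (adjusted p = 0.0237, limma). Without the term the limma values were -1.43 ± 0.50 (adjusted p = 0.405) and -1.32 ± 0.45 (adjusted p = 0.368). The difference for Lta was -1.22 ± 0.33 with the term (adjusted p = 0.125, limma). Tnf was 221 FPKM with GATA3 against 507 with the control vector in STAT6 KO cells, and 141 against 147 FPKM in WT cells. The interaction of STAT6 KO with the GATA3 vector was called for none of the 9 ligands by limma, with or without the batch term, and for 0 and 5 of all genes; none of the ligands had an unadjusted interaction p under 0.05. Tnfsf14 ran the other way in WT cells, with 305 FPKM under GATA3 against 155 under the control vector, and stood at 257 against 248 FPKM in STAT6 KO cells (log2 0.73 ± 0.38 with the batch term, adjusted p = 0.394, limma).

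Gata3 itself was the only one of the 15 regulators called with the GATA3 vector (log2 3.39 ± 0.38, adjusted p = 0.00473, limma). Mast cell and basophil markers moved with this vector: they summed to 46.1 and 69.1 FPKM in the STAT6 KO and WT libraries with GATA3, against 0.758 and 0.712 FPKM with the control vector. Of the 4 markers, Mcpt8 was called higher, at 42.7 and 59.2 FPKM against 0 and 0.0941, and Fcer1a stayed under 1 FPKM in every library; the part of such cells in the ligand values was not tested. Fewer cells with a transcript and less of it per cell cannot be told apart in these bulk libraries. CD4 T cell markers had no called member and summed to 838 and 702 FPKM with GATA3 against 912 and 919 FPKM with the control vector.

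**Figure D2:**
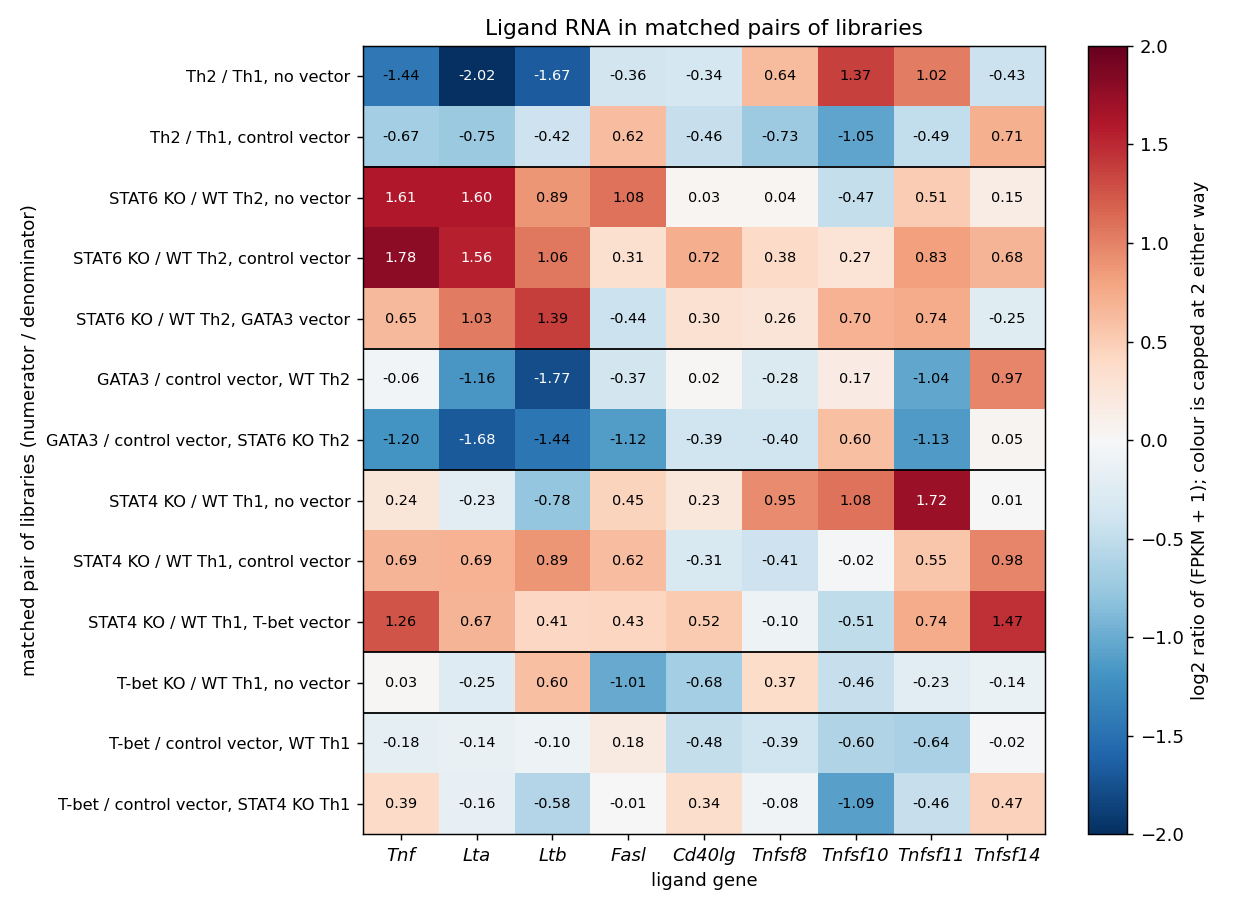
Log2 ratio of (FPKM + 1) of each ligand in each matched pair of libraries. Each row names numerator and denominator, and red is higher and blue lower in the numerator. Where WT Th1 without a vector is the denominator, the mean of its replicates on the log scale is used. Lta and Ltb were positive in the 3 STAT6 KO rows and negative in both GATA3 vector rows.

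The genes around Tnf were read in the same pairs, since the region holds other transcripts within 50 kb of the 3 ligand genes. Outside the ligands, the log2 ratios of STAT6 KO over WT of Bag6, Prrc2a, Aif1, Atp6v1g2 and Ddx39b lay between -0.62 and 0.21. These are ratios of (FPKM + 1), which understate changes of low genes, and Aif1 and Atp6v1g2 were low in every library. Atp6v1g2 stood at 0.554 to 1.75 FPKM over the 14 libraries. Aif1 was 0.131 (no vector), 0.158 (control) and 0.507 (GATA3) FPKM in STAT6 KO, against 0.742, 0.089 and 0.387 FPKM in WT. Whether Aif1 or Atp6v1g2 changed cannot be read from their ratios, here or with the GATA3 vector below. Nfkbil1, the gene next to Lta, had ratios of 0.31, 0.996 and 0.55 without a vector, with the control vector and with the GATA3 vector. Lst1, the gene next to Ltb, had -0.17, -0.26 and 1.20 in these pairs. Its levels there were low: 7.09, 1.16 and 2.25 FPKM in STAT6 KO, against 8.07, 1.59 and 0.421 FPKM in WT. In the GATA3 vector pairs Nfkbil1 stood at -0.73 in STAT6 KO and -0.28 in WT cells, and the ratios of Bag6, Prrc2a, Atp6v1g2 and Ddx39b lay between -0.29 and 0.12. Lst1 stood at 0.59 in STAT6 KO and -0.87 in WT cells, and Aif1 at 0.38 and 0.35. None of the flanking genes that entered the test was called in either comparison, in either fit. Prrc2a has a failed estimate in some library and Aif1 never reached 1 FPKM in more than 1 library, so these were not tested. No source used here says whether the counting used strand, and the 3 ligand genes do not overlap each other in the table.

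**Figure D3:**
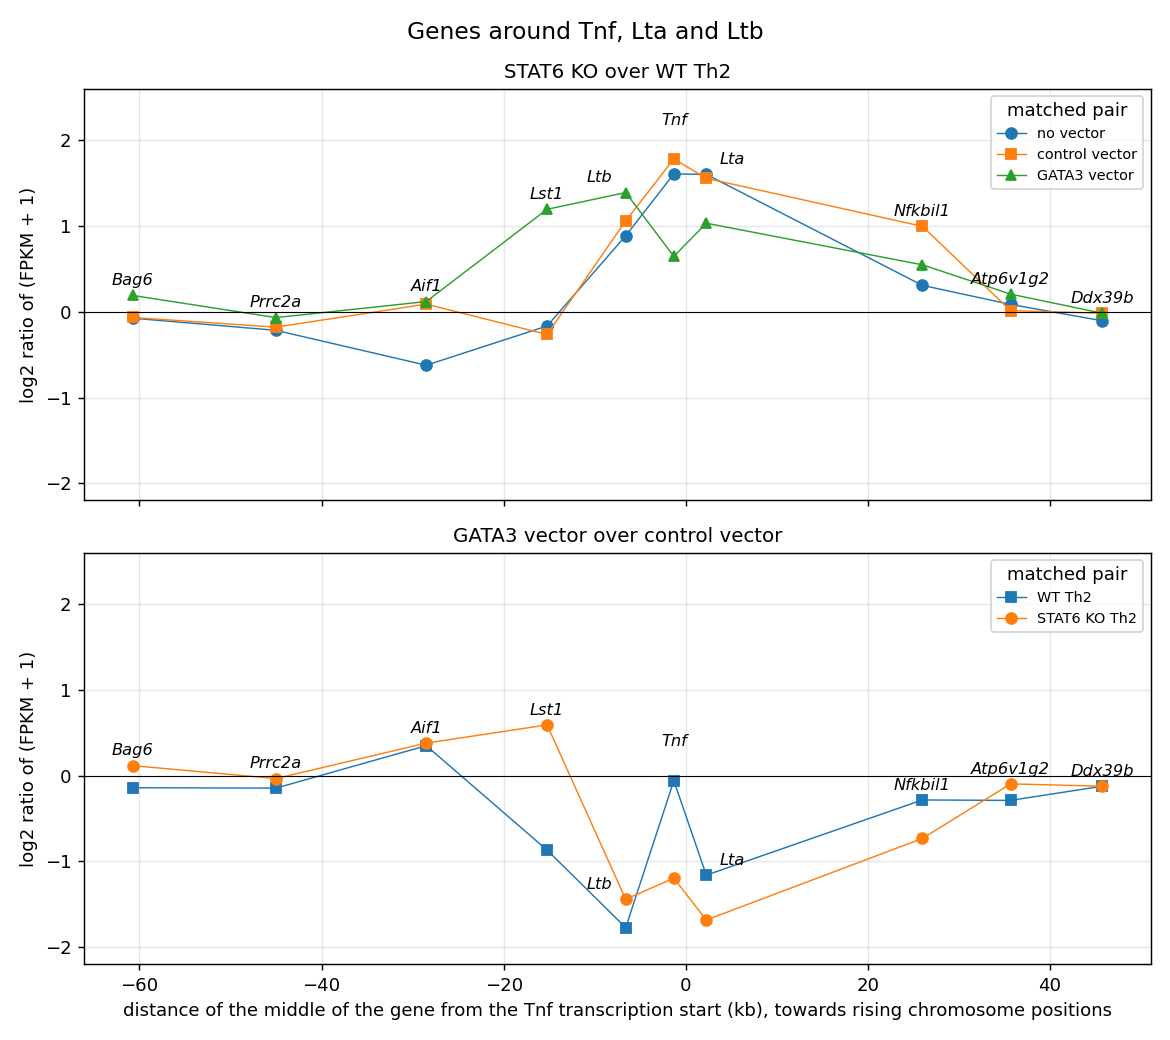
Log2 ratio of (FPKM + 1) of the genes around Tnf against the distance of each gene's middle from the Tnf transcription start (kb), for STAT6 KO over WT Th2 (above) and GATA3 vector over control vector (below); lines join the genes of 1 matched pair. In STAT6 KO the ratios of Ltb, Tnf and Lta ran from 0.65 to 1.78 while those of Bag6 and Ddx39b lay between -0.10 and 0.19. Nfkbil1 (0.31, 0.996 and 0.55) and Lst1 (-0.17, -0.26 and 1.20) reached into the range of the ligands. The 1.20 of Lst1 rests on 2.25 against 0.421 FPKM.

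Th2 cells were compared with Th1 cells in WT cultures with no vector and with the control vector. Lta, Ltb and Tnf stood lower in Th2 in both. Lta was 70.3 FPKM in WT Th2, against 307 and 269.7 FPKM in the WT Th1 replicates, and 98.0 against 165 FPKM with the control vector. Tnf was 402 FPKM in WT Th2, against 1351 and 881 FPKM in WT Th1, and 147 against 234 FPKM with the control vector. Ltb was 161 FPKM in WT Th2, against 306 and 863 FPKM in WT Th1, and 139 against 187 FPKM with the control vector. In each culture the Th2 level of these 3 ligands was below every Th1 level, as for 24.6% of all genes; no ligand was above in both, as were 17.6%. For these 3 the ratio was nearer to 1 with the vector. The lineage by vector culture interaction was called for no ligand by limma, with or without the batch term. Without and with the term, 1 ligand (Tnfsf10) and 0 had an unadjusted p under 0.05, as had 620 and 1870 of 11121 genes. Cd40lg was 848 FPKM in WT Th2, which lay between the WT Th1 replicates (1907 and 609 FPKM), and 170.3 against 235 FPKM with the control vector.

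No ligand was called for lineage in either fit, against 0.845% of all genes higher in Th2 and 2.36% lower in the additive fit, and 1.57% and 5.26% with the batch term; 3 ligands had an unadjusted p under 0.05 in each fit. Lta came nearest, with a log2 difference of -1.35 ± 0.31 (adjusted p = 0.0528, limma) and -1.26 ± 0.32 with the term (adjusted p = 0.0697). It passed with a pseudocount of 0.1 and, among left-out libraries, without WT Th1 control vector (0.0468, limma). It moved to -1.03 ± 0.37 without WT Th2 (adjusted p = 0.347, limma). With the lineage by vector culture interaction in the fit, the lineage term covers only the cultures without a vector. That difference passed for Lta (adjusted p = 0.0361, limma). Ltb differed by -1.22 ± 0.46 (adjusted p = 0.201) and by -0.74 ± 0.20 with the term (adjusted p = 0.0811, limma). None was 2-fold different in both pairs, whereas 1.1% of all genes were 2-fold higher and 2.25% lower. The 4 ligands Tnf, Lta, Ltb and Cd40lg were lower in Th2 in both pairs, as were 31.8% of all genes. Immediate early genes summed to 2533 FPKM in WT Th2, the lowest of all libraries, against 5037 and 8064 FPKM in the WT Th1 replicates, and to 2903 against 3131 FPKM with the control vector. Of the 15 tested, Fosb was called lower (log2 -1.35 ± 0.24, adjusted p = 0.0237, limma) and their median was -0.63 against -0.04 over all genes. Klrc1, the 1 tested of 4 NK cell markers, was called lower in Th2, at 0.209 FPKM in WT Th2 against 1.85 and 3.36 in WT Th1, and 0 against 2.61 with the control vector (log2 -1.66 ± 0.20, adjusted p = 0.00526, limma). The other 3, Ncr1, Klrb1c and Klra8, stayed under 1 FPKM in every library, and the sums of the 4 were 0.26 FPKM in WT Th2 against 1.85 and 3.38 in WT Th1, and 0.0565 against 2.63 with the control vector. Kit, a mast cell marker, was called lower as well, at 0.0667 FPKM against 10.8 and 3.57, and 0.072 against 3.51 with the control vector (log2 -2.37 ± 0.36, adjusted p = 0.012, limma). The 4 mast cell and basophil markers summed to 10.2 FPKM in WT Th2 against 10.8 and 3.57 in WT Th1, and to 0.712 against 3.51 with the control vector. Both calls were also made with the batch term, where the dendritic cell marker Zbtb46 was called lower too (adjusted p = 0.0298, limma). The part of stimulation strength or of such cells in the ligand values was not tested.

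STAT4 KO Th1 cells, which lack the IL-12 signal through STAT4, were compared with WT Th1 cells in 3 pairs. Tnfsf11 stood higher in STAT4 KO in every pair, but no ligand passed the test. Tnfsf11 was 347, 249.8 and 181 FPKM in STAT4 KO cells without a vector, with the control vector and with the T-bet vector, against 163 and 66.7 FPKM in the WT Th1 replicates, 170.1 with the control vector and 108 with the T-bet vector. Every STAT4 KO level lay above every WT level, as for 4.49% of all genes; for no ligand was every one below, as for 6.28%. Its log2 change was 1.12 ± 0.37 (adjusted p = 0.212, limma), and 0.79 ± 0.16 with the batch term (adjusted p = 0.0502); leaving out WT Th1 replicate 2 gives the same estimate by construction, with an adjusted p = 0.0495 (limma). Tnfsf14 was 187 FPKM in STAT4 KO against 94.2 in WT under the control vector and 258 against 92.8 under the T-bet vector, but without a vector its 444 FPKM lay between the WT Th1 replicates (405 and 479). Lta and Ltb were higher in STAT4 KO in both vector pairs and not without a vector, where Lta was 245 FPKM against 307 and 269.7 in WT.

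The additive fit called 0.135% of the tested genes higher and 0.593% lower in STAT4 KO, and the fit with the batch term 1.45% and 2.04%. In these fits 1 and 2 ligands had an unadjusted p under 0.05, as had 1744 and 2749 of 11121 genes. All 9 fitted changes were positive in the additive fit, with a median of 0.36 against 0.04 over all genes, and 7 of 9 with the batch term. The 4 ligands Tnf, Fasl, Tnfsf11 and Tnfsf14 were higher in all 3 pairs, as were 25.7% of all genes, and none was 2-fold higher in all, as were 0.153%, or 2-fold lower in all, as were 1.1%. Eomes, a T-box factor related to T-bet, was the only regulator called in the additive fit, at 0.81, 0.944 and 2.59 FPKM in STAT4 KO without a vector, with the control vector and with the T-bet vector, against 5.75 and 6.15, 4.35 and 6.35 FPKM in WT (log2 -1.56 ± 0.25, adjusted p = 0.0365, limma). With the batch term 3 of 15 regulators were called lower, Stat4, Tbx21 and Eomes, beside 2.04% of all genes. Also called lower there were Junb of 15 immediate early genes and Cd28 of 8 CD4 T cell markers. Klrc1, the 1 NK cell marker tested, and Xcr1, 1 of 2 dendritic cell markers tested, were called lower too. The part of stimulation strength or of such cells in the ligand values was not tested.

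T-bet was both removed and added. In the T-bet KO library, Fasl was 47.7 FPKM against 144 and 65.3 FPKM in the WT Th1 replicates, the lowest level of Fasl in the series. The STAT6 KO Th2 library with the GATA3 vector stood next to it at 48.9 FPKM, and their counting intervals overlapped. Ltb was 778 FPKM in T-bet KO against 306 and 863 in WT, and Tnfsf8 was 453 FPKM against 654 and 187, so both lay between the replicates. Fasl was the 1 ligand at least 2-fold lower than the replicates averaged on the log scale, as were 3.17% of all genes, and none was 2-fold higher, as were 5.86%. Against replicate 2 alone, which resembles the T-bet KO library, Fasl was no longer 2-fold lower and Tnfsf8 was 2-fold higher. No ligand was called in either fit by limma, and the additive fit called 0.00899% of all genes in each direction. With the batch term 1 library is compared with 1. Without WT Th1 replicate 2, limma called 5421 of 11121 genes, 2505 higher and 2916 lower in T-bet KO, with Ltb among the higher and Tnfsf8 and Tnfsf11 among the lower. These 3 genes had the opposite sign in the fit with the batch term: -0.15 ± 0.32 for Ltb, 1.27 ± 0.20 for Tnfsf8 (adjusted p = 0.059, limma) and 0.41 ± 0.27 for Tnfsf11. The T-bet vector libraries had 137 and 245 FPKM of Tbx21 in STAT4 KO and WT cells, against 35.1 and 61.0 FPKM with the control vector. Ligand levels with the T-bet vector lay within 2-fold of the control in both pairs except Tnfsf10 in STAT4 KO cells, at 5.06 FPKM against 11.9. None was 2-fold higher or lower in both pairs, as were 0.171% and 0.027% of all genes. No ligand was called for the T-bet vector, 0 and 1 had an unadjusted p under 0.05, and limma called 0% of all genes in the additive fit (150 of 11121 at an unadjusted p under 0.05). With the batch term it called 0.018% higher and 0% lower (453 of 11121 at an unadjusted p under 0.05). On the log2 scale 5 ligands were lower in both pairs, as were 36.2% of all genes. The STAT4 KO by T-bet vector interaction was called for none of the 9 ligands by limma with or without the batch term, and for 1 and 2 of all genes; no ligand had an unadjusted interaction p under 0.05.

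Control-vector cultures labelled day 5 were also set against day 7 cultures without a vector, a comparison in which the day, the retrovirus and, for Th2 cells, possibly restimulation cannot be told apart. Cd40lg, Tnf and Tnfsf14 were lower and Tnfsf10 was higher in the control-vector cultures. Cd40lg was 281, 170.3, 189.7 and 235 FPKM in control-vector STAT6 KO Th2, WT Th2, STAT4 KO Th1 and WT Th1 cells, against 867, 848 and 1259 FPKM in the first 3 without a vector and 1907 and 609 FPKM in the WT Th1 replicates. Tnf was 507, 147, 378 and 234 FPKM in the same control-vector libraries, against 1228, 402, 1293, and 1351 and 881 FPKM without a vector. Levels with and without the vector did not overlap for Cd40lg, and for Tnf the STAT6 KO library with the vector lay above WT Th2 without it. Tnfsf14 was 248, 155, 187 and 94.2 FPKM with the control vector, against 361, 327, 444, and 405 and 479 FPKM without. Tnfsf10 was 6.63, 5.32, 11.9 and 12.1 FPKM with the control vector, against 2.86, 4.36, 3.41, and 1.85 and 0.517 FPKM without. Neither gene overlapped between the 2 kinds of culture, so Cd40lg and Tnfsf14 lay apart on the lower side, as did 5.66% of all genes, and Tnfsf10 on the higher side, as did 21.3%.

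This difference reached far beyond the ligands: the additive fit called 23.4% of the tested genes higher and 8.15% lower, and the fit with the batch term 35.8% and 15.2%. Of the 9 ligands 1 was called higher and 3 lower, or 1 and 5 with the term, so the share higher was below the background and the share lower above it. Cd40lg fell by 2.23 ± 0.33 on the log2 scale (adjusted p = 0.00205, limma), Tnf by 1.74 ± 0.28 (adjusted p = 0.00268) and Tnfsf14 by 1.37 ± 0.31 (adjusted p = 0.0107), and Tnfsf10 rose by 1.49 ± 0.41 (adjusted p = 0.0247). With the batch term Tnfsf8 fell by 0.95 ± 0.10 (adjusted p = 0.000637) and Tnfsf11 by 0.43 ± 0.13 (adjusted p = 0.035, limma). Cd40lg and Tnf were at least 2-fold lower in all 4 pairs, as were 0.827% of all genes; no ligand was 2-fold higher in all 4, as were 2.66%. The median of all genes was 0.16 here, and 0.01 after quantile normalization and -0.02 after upper-quartile scaling, and 1 ligand was called higher and 3 lower under both. The calls over all genes were 2599 higher and 906 lower as deposited, 1782 and 1322 after quantile normalization, and 1622 and 1427 after upper-quartile scaling. Without WT Th1 control vector 2 calls were left, those of Tnfsf14 (adjusted p = 0.0551) and Tnfsf10 (0.113, limma) being lost, and leaving out STAT4 KO Th1 control vector or STAT6 KO Th2 also ended that of Tnfsf10. Lta and Ltb were not called: Lta was 290.2, 98.0, 268 and 165 FPKM with the control vector, against 216, 70.3, 245, and 307 and 269.7 FPKM without. The ratio of Tnf to Lta FPKM was 1.38 to 3.25 in the 8 vector libraries and 3.26 to 5.72 in the 6 without a vector.

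**Figure D4:**
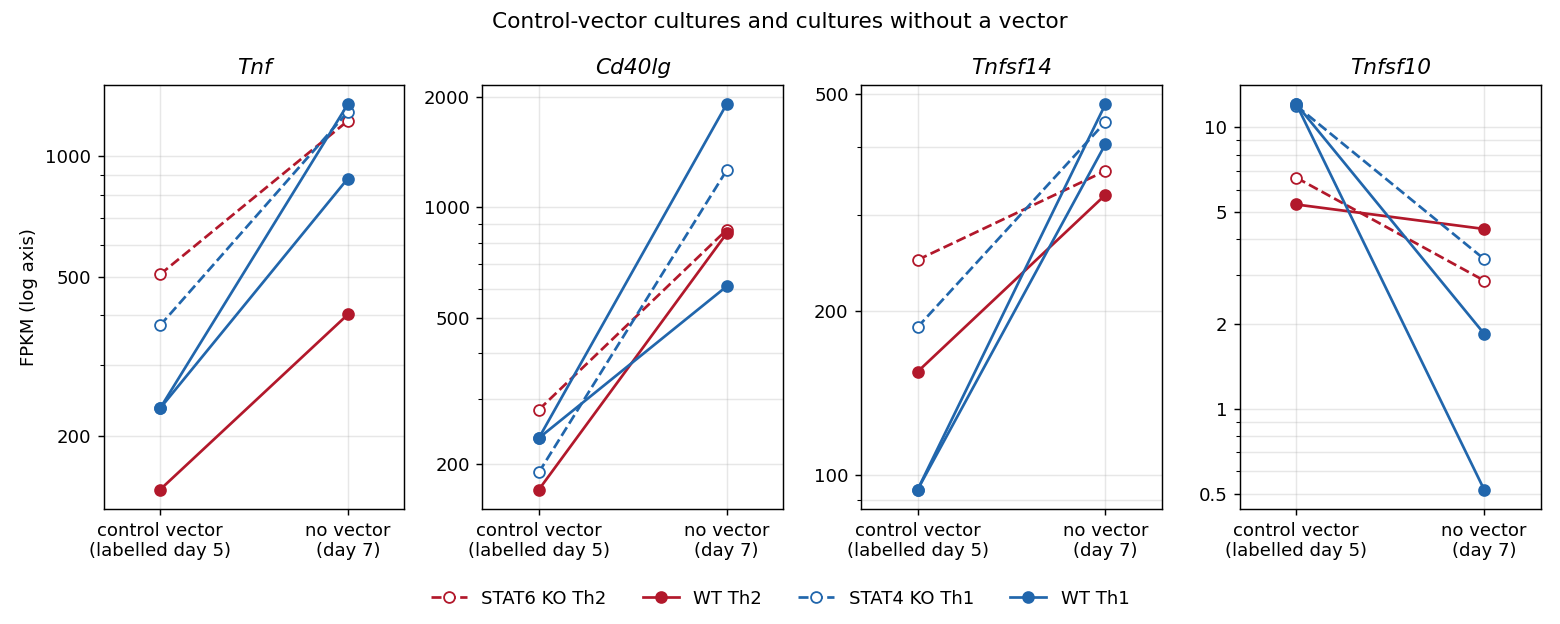
FPKM (log axis) of Tnf, Cd40lg, Tnfsf14 and Tnfsf10 in control-vector cultures and in cultures without a vector; lines join libraries of the same lineage and genotype, with both WT Th1 replicates joined to the same control-vector library. Cd40lg was at most 281 FPKM with the vector and at least 609 FPKM without it.

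Genes of other lists were also called in the vector cultures. Of 15 immediate early genes 1 was called higher (Irf4) and 3 lower, beside 23.4% and 8.15% of all genes. The 3 were Fosb (log2 -1.85 ± 0.19, adjusted p = 0.000611), Egr3 (-2.14 ± 0.31, adjusted p = 0.00185) and Egr2 (-1.02 ± 0.30, adjusted p = 0.0321, limma). With the batch term 3 were called higher (Irf4, Ier3 and Junb) and the same 3 lower, beside 35.8% and 15.2% of all genes. The median of the list was -0.35 against 0.16 over all genes in the additive fit. Of 8 CD4 T cell markers 3 were called lower, Cd3g, Cd3d and Lck, beside 8.15% of all genes. With the batch term 4 were, Cd4 being added, beside 15.2% of all genes. The marker sums were 797 to 997 FPKM with the control vector against 1308 to 1548 FPKM without a vector. The part of stimulation strength or of T cell content in the ligand values was not tested.

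The receptors of these ligands were read as a list of 13, of which 10 were expressed enough to be tested; Ltbr, Tnfrsf11a and Tnfrsf11b, which encode the lymphotoxin beta receptor, the RANKL receptor and its decoy, stayed under 1 FPKM in every library. Tnfrsf8, which encodes CD30, the receptor of the Tnfsf8 product, was called higher in Th2 and lower in STAT6 KO in both fits. It was 0.0382, 0.077 and 0.313 FPKM in STAT6 KO Th2 cells without a vector, with the control vector and with the GATA3 vector, against 44.5, 33.0 and 10.5 FPKM in WT (log2 -4.52 ± 0.66, adjusted p = 0.0177, limma). Its level in WT Th2 was above that of both WT Th1 replicates (0.92 and 9.78 FPKM) and, with the control vector, 33.0 against 1.12 FPKM (log2 3.32 ± 0.69, adjusted p = 0.0403, limma). The T-bet KO library had 37.0 FPKM of Tnfrsf8 (adjusted p not under 0.05 in either fit). Its ligand gene Tnfsf8 was not called in either comparison. Tnfrsf1b, which encodes TNF receptor 2, was lower in Th2, at 30.7 FPKM against 104 and 106 FPKM in WT Th1, and 23.8 against 50.9 FPKM with the control vector (log2 -1.37 ± 0.20, adjusted p = 0.0112, limma). With the batch term Fas and Tnfrsf14, the receptors of the Fasl and Tnfsf14 products, were also called lower in Th2 and higher in STAT6 KO. Fas was 75.5, 60.4 and 49.4 FPKM in STAT6 KO against 31.8, 31.3 and 30.5 FPKM in WT (log2 0.94 ± 0.11, adjusted p = 0.0135 with the term, limma, and 0.247 without it). No receptor was called for STAT4 KO, T-bet KO, T-bet vector or GATA3 vector in either fit by limma. In the vector cultures Tnfrsf10b, the TRAIL receptor, was called higher, at 12.3 to 22.5 FPKM with the control vector against 3.23 to 8.20 FPKM without a vector (log2 1.77 ± 0.21, adjusted p = 0.000806, limma), and Tnfrsf1b lower.

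Among 9 other ligands of the superfamily, 5 (Tnfsf12, Tnfsf13, Tnfsf15, Tnfsf18 and Eda) stayed under 1 FPKM in every library. Tnfsf13b, which encodes the B cell survival factor BAFF, was called higher in Th2 and lower in STAT6 KO in both fits. It was 0.0583, 0.0883 and 0.0821 FPKM in STAT6 KO Th2 cells without a vector, with the control vector and with the GATA3 vector, against 5.11, 4.18 and 1.69 FPKM in WT (log2 -2.03 ± 0.26, adjusted p = 0.011, limma). Tnfsf4, which encodes OX40 ligand, was 3.25 FPKM in WT Th2 against 167 and 7.70 FPKM in the WT Th1 replicates, and 21.0 against 199 FPKM with the control vector (called lower with the batch term only, log2 -3.75 ± 0.58, adjusted p = 0.021, limma). Of 17 signalling genes, Traf1, a TRAF adaptor, was called lower in Th2 (log2 -1.81 ± 0.33, adjusted p = 0.0237, limma), with a list median of -0.44 against -0.04 over all genes. In the vector cultures 3 signalling genes were called higher and 1 lower, beside 23.4% and 8.15% of all genes, or 6 and 3 with the batch term, beside 35.8% and 15.2%, the first by adjusted p being Tnfaip3, the NF-kB inhibitor A20 (log2 1.65 ± 0.16, adjusted p = 0.000524, limma). Of 10 genes of ligand shedding and RNA turnover, none was called outside the vector cultures in either fit. There 3 were called higher in both fits, beside 23.4% of all genes, or 35.8% with the batch term: Adam17, the protease that sheds TNF (log2 0.58 ± 0.13, adjusted p = 0.0117), Rc3h1, the RNA-binding protein Roquin (0.88 ± 0.20, adjusted p = 0.0118), and Elavl1, the RNA-stabilising protein HuR (0.95 ± 0.23, adjusted p = 0.0153, limma).

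Within the family, levels over the 12 libraries other than WT Th1 replicate 2 and T-bet KO were compared as a description, since these libraries share groups, cultures and controls. Lta followed Ltb (Pearson r = 0.924 on log2(FPKM + 1), 12 libraries), Cd40lg followed Tnfsf8 (r = 0.926), and Tnfsf11 followed Ltb (r = 0.875). Tnf was most like Cd40lg (0.870) and was less like its neighbours Lta (0.707) and Ltb (0.740); whether these values differ was not tested. Tnfsf10 ran against all 8 others, from -0.209 with Lta to -0.814 with Cd40lg. Over 6803 genes reaching 10 FPKM in a library, the genes most like Lta were Hivep1 (0.980), Tmem38b (0.942) and Abca3 (0.930), and Ltb was in the fourth place. The most like Ltb were Slamf6 (0.941), Lta itself (0.924) and Hivep1 (0.915). The gene most like each other ligand was Cd84 for Tnf (0.950), Map3k8 for Cd40lg (0.970), Rilpl2 for Tnfsf8 (0.976), Atg16l2 for Fasl (0.928), Nsd1 for Tnfsf10 (0.912), Adss for Tnfsf11 (0.932) and Gbas for Tnfsf14 (0.921).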

How the data were processed

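RNA-seq was read from 14 libraries in 13 groups, 12 of them with 1 library. The deposited gene tables hold FPKM with an interval, which Cufflinks made per library after TopHat alignment to mm9, per the file headers and the submitters' processing notes; versions, depth and use of strand are not stated. Each table has 23700 entries, and 0 columns of sample values were unused. The p300 and H3K4me1 samples were not analysed here.

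Values were taken as log2(FPKM + 1), which understates changes of low genes, keeping genes with 1 FPKM or more in at least 2 libraries (11121 genes). Genes with a failed estimate in any library were left out (112 that would pass). A single additive model (lineage, STAT4 KO, T-bet KO, STAT6 KO, T-bet vector, GATA3 vector and vector culture) was fitted with limma 3.58.1 in R 4.3.3, with Benjamini-Hochberg adjustment over all genes and a threshold of 0.05. It left 6 residual degrees of freedom, and 5 with the batch term. The code was tested on simulated data. Matched pairs of libraries were also compared at 2-fold, with no test. All 9 ligands are named, with the called genes of the lists, and for likeness the 3 most correlated genes per ligand at 10 FPKM or more. Ligands and lists were chosen with earlier results of these data known, and the vector culture comparison was added after the data were seen. Alternatives were the batch term, quantile and upper-quartile scaling, a pseudocount of 0.1, no filter, a lineage by vector interaction, no variance trend and leaving out each library.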

Additional observations from a re-analysis of the deposited data

Results flagged for a closer look

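Tnfsf10 differed between lineages in opposite directions in the 2 kinds of culture, by at least 1.5-fold each way. Without a vector the log2 ratio of (FPKM + 1) of WT Th2 over WT Th1 was 0.9107 against replicate 1 and 1.82 against replicate 2. With the control vector it was -1.05. Tnfsf10 stood at 4.36 FPKM in WT Th2 against 1.85 and 0.517 FPKM in WT Th1, and at 5.32 FPKM in WT Th2 against 12.1 FPKM in WT Th1 with the control vector. The test of the difference itself, the lineage by vector culture interaction in limma, gave -1.63 ± 0.65 on the log2 scale (SE; unadjusted p = 0.0391, adjusted p = 0.695), and -1.27 ± 0.51 with the batch term (adjusted p = 0.300), so it did not pass the correction. Tnfsf10 is the least abundant of the 9 ligands.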

How the results depend on the processing

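No paired analysis was possible because the groups compared share fewer than 2 replicate numbers; the kind of culture that the matched pairs share is already a term of the fit. Values called in either fit were sorted by sign and side of the threshold, and the rest by whether they moved beyond the main standard error. Of 468 values under another setting, 443 stayed the same, 17 moved, 7 newly passed, 1 no longer passed and 0 turned round. Of 873 that leave out 1 library the numbers were 835, 24, 9, 4 and 1. Sign was not checked for values called in neither fit. With the batch term, for example, Tnfsf10 for lineage went from 0.07 to -0.34 and counts as the same. Ligands called for lineage went to 1 with a pseudocount of 0.1. They also went to 1 with the lineage by vector interaction, where the lineage term covers only the cultures without a vector. With the batch term those called for STAT6 KO went to 1 and those for the GATA3 vector to 2. Leaving out 1 library gave 0 to 1 called ligands for lineage, 0 to 1 for STAT4 KO, 0 to 3 for T-bet KO, 0 to 1 for STAT6 KO, 0 to 2 for the GATA3 vector and 2 to 6 for vector culture. Leaving out WT Th1 replicate 2 gives the batch-term estimates by construction for every comparison but T-bet KO. Set against WT Th1 replicate 1 alone, T-bet KO had 1 ligand 2-fold higher and 2 lower, and against replicate 2 alone 1 and 0. Leave-outs for Tnfsf8 in T-bet KO ran from -0.65 (adjusted p = 0.0271, limma, without WT Th1 replicate 2, where 5421 of 11121 genes were called) to 0.33, against 1.27 with the batch term (adjusted p = 0.059). Without the filter Tnfsf10 lost its vector culture call (adjusted p = 0.0684, limma). The cause of these movements was not tested. With 12 groups of 1 library, the spread behind every test rests on additivity. Without the batch term it also holds the gap between the WT Th1 replicates. Depth is not in the tables.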
